A study of Mus musculus with 30 samples.

Results

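The transcriptomes of 5 MC38 tumours taken 7 days after a single dose of a masked interleukin-12 were set against those of 5 tumours taken 7 days after vehicle, and all genes of the table were described. These 10 libraries were chosen by their labels (treatment and day) from the 30 libraries of the series. MC38 is a colon carcinoma cell line from C57BL/6 mice. In both groups MC38 cells had been injected under the skin of the right flank of female C57BL/6J mice that were 10 weeks old at injection, and dosing began when tumours measured 200 to 300 mm3. The treated mice received mXTX301, labelled as a mouse surrogate of a masked IL-12, at 0.39 mg/kg into a vein. The control mice received vehicle by the same route. Each library is polyadenylated RNA of the tumour of 1 mouse, tumour cells, infiltrating cells and stroma together, so fewer cells of a type and less RNA per cell cannot be told apart in any value below. The other libraries of the series, used only where stated, were mXTX301 and vehicle tumours at day 4 and tumours of mice given an unmasked positive control at 0.03 mg/kg, with 5 in each group.

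Interleukin-12 is made mainly by dendritic cells and macrophages. It binds a receptor of the chains Il12rb1 and Il12rb2 on T cells and natural killer (NK) cells and acts through the kinases Jak2 and Tyk2 and the transcription factor Stat4, which together with Tbx21 drive transcription of Ifng, the interferon-gamma gene. Interferon-gamma in turn acts on almost every cell type, where transcription factors such as Irf1 switch on guanylate-binding proteins, chemokines and the genes of antigen presentation. A masked cytokine carries a domain that blocks receptor binding until proteases, which are abundant in many tumours, remove it.

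Promoter windows of 3 genes induced by interferon-gamma are shown for the letters that match motifs known from interferon signalling. The windows below are 61 bases each from the RefSeq promoter table (assembly GRCm38.p6, the same build as the mm10 of the submitters' processing notes, from which the gene coordinates below are also taken), read 5′ to 3′ on the strand of the gene, and capitals mark a match to a motif that was searched on both strands. TTCNNNGAA is the gamma-activated site of interferon-gamma signalling, and GAAANNGAA is the core of the interferon-stimulated response element bound by interferon regulatory factors.
Irf1, chr11:53769898-53769958, plus strand, capitals a TTCNNNGAA match: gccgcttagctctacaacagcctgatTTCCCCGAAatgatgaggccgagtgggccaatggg
Gbp2b, chr3:142594685-142594745, plus strand, capitals a GAAANNGAA match read on the opposite strand: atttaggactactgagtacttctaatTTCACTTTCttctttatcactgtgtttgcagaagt
Cxcl9, chr5:92328220-92328280, minus strand, capitals a GAAANNGAA match: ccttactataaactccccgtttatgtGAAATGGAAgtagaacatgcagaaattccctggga
The matches began 90 bases before the start that the promoter table uses for Irf1, 136 before that of Gbp2b and 175 before that of Cxcl9. The gene coordinates of Gbp2b begin 31 bases ahead of that start, so its match lies 105 bases before them. Of 32851 promoter entries of 300 bases, 8.3% held TTCNNNGAA and 8.56% held GAAANNGAA, so a match is common and only describes the letters. A second Irf1 entry held neither motif, and no match of one motif overlapped a match of the other in these 4 entries.

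Depth was high in both groups, with 48301869 to 66275641 counts in the mXTX301 libraries and 61826759 to 82813424 counts in the vehicle libraries (5 each), and 17099 to 17592 genes detected in mXTX301 and 17020 to 17785 in vehicle. Values below are CPM (counts per 1000000 of the library, scaled by TMM, the trimmed mean of M-values), given for replicates 1 to 5 in that order or as mean ± SD (n = 5 in each group), and adjusted p-values come from the edgeR test described below. The median SD of a gene's log2 CPM was 0.147 within the mXTX301 group and 0.204 within vehicle. Spearman correlations over genes ran from 0.974 to 0.994 between mXTX301 libraries, from 0.947 to 0.984 between an mXTX301 and a vehicle library, and from 0.976 to 0.993 between vehicle libraries. Epidermal genes varied within both groups. The first principal component of the 1000 most variable genes, with 43.5% of their variance, had Krt5, Krt1 and Krt14 at one end and Gbp2b, C6 and Marco at the other. The summed CPM of 5 epidermal keratin genes was 788 and 172 in mXTX301 replicates 1 and 3 and 34, 24.4 and 695 in vehicle replicates 2, 3 and 5, against 0.917 to 1.31 in the other 5 libraries. These 5 are called the skin-rich libraries below. The fit without them drops all 12 such libraries of the 30 and keeps 3 mXTX301 and 2 vehicle libraries of day 7; 18.6% of all genes were then higher and 15.2% lower. It ended the call of 7 genes named below, and turned none, and their log2 fold changes in that fit are given beside them. The intestinal epithelial genes Epcam and Cdh1 did not mark the tumour cells here: Epcam ranged over 0.0307 to 2.17 CPM in mXTX301 and 0.0162 to 3.33 CPM in vehicle, and Cdh1 over 1.55 to 7.58 CPM in mXTX301 and 1.67 to 10.7 CPM in vehicle, with the highest values in libraries rich in epidermal genes. Cdx2, Cldn3 and Cldn7 were too low to be tested.

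Close to equal numbers of genes were higher and lower in mXTX301 tumours. Of 15482 genes, 7493 (48.4%) passed an adjusted p of 0.05 in the edgeR quasi-likelihood test, 3985 higher (25.7%) and 3508 lower (22.7%) in mXTX301 tumours. Large changes were mostly rises. At least 2-fold rises numbered 1885 (12.2%), at least 4-fold rises 692 and at least 8-fold rises 188, whereas 271 genes (1.75%) fell at least 2-fold, 75 at least 4-fold and 30 at least 8-fold. All 5 mXTX301 libraries lay above all 5 vehicle libraries in 2560 genes (16.5%) and below them in 2203 (14.2%). The genes that rose at least 2-fold took 5.92 to 9.14% of all counts in mXTX301 libraries, against 2.06 to 2.66% in vehicle. The median log2 fold change of all genes was 0.02, and the values from the 5th to the 95th percentile ran from -0.69 to 1.94.

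**Figure D1:**
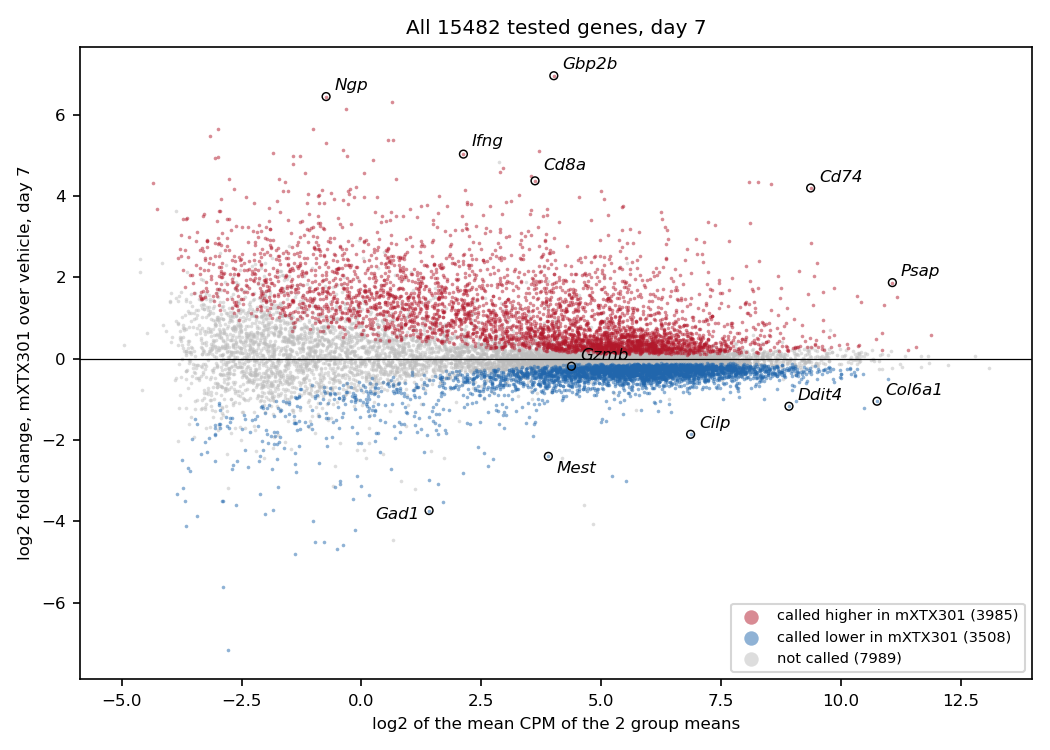
Each point is 1 of the 15482 tested genes: the x axis is log2 of the mean CPM of both groups and the y axis the fitted log2 fold change of mXTX301 over vehicle at day 7. Red genes (3985) were called higher and blue genes (3508) lower at an adjusted p under 0.05. All log2 fold changes ran from -7.17 to 6.96, and called rises of at least 2-fold (1885) outnumbered such falls (271). Gbp2b is labelled at 6.96, Gad1 at -3.73 and Gzmb near 0.

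The interleukin-12 pathway itself rose at nearly every step from receptor to transcription factor. Of 15 genes of the receptor, its signal and related cytokines, 14 were higher and 1 lower (median log2 fold change 1.66). Il12rb1 had 185, 156, 174, 161 and 127 CPM in mXTX301 libraries, against 33, 37.5, 39.8, 47 and 34.7 CPM in vehicle, a 4.18-fold rise (edgeR adjusted p = 2.11e-12). Il12rb2, the chain that confers signalling, had 2.04, 1.43, 3.52, 5.16 and 2.15 CPM in mXTX301 and 0.191, 0.315, 0.109, 0.357 and 0.18 CPM in vehicle. Jak2 reached 99.6 ± 7.68 CPM in mXTX301 and 59.6 ± 4.07 in vehicle (SD, n = 5 each; adjusted p = 2.52e-07). Il12rb2 rose 12.3-fold (adjusted p = 4.58e-07), without overlap between the groups. Stat4 had 2.8, 2.1, 3.05, 5.26 and 3.59 CPM in mXTX301 and 1.11, 1.75, 0.669, 1.22 and 0.99 CPM in vehicle. Tbx21, the T-helper 1 regulator, had 3.95, 3.08, 4.34, 6.16 and 3.5 CPM in mXTX301 and 0.679, 0.999, 0.218, 0.406 and 0.495 CPM in vehicle. Il18bp, which encodes the soluble inhibitor of interleukin-18, averaged 60.6 ± 16.1 CPM in mXTX301 and 11.1 ± 1.37 CPM in vehicle, a 5.44-fold rise (adjusted p = 9.43e-10). Stat4 rose 2.92-fold and Tbx21 7.46-fold (adjusted p of at most 0.000342), each without overlap between the groups. The exception was Il12a, the gene of the p35 subunit of interleukin-12 itself, at 0.0339, 0.0153, 0.108, 0.128 and 0.0187 CPM in mXTX301 and 4.16, 2.16, 0.171, 0.714 and 0.165 CPM in vehicle (adjusted p = 0.000586). Vehicle values of Il12a were carried mainly by replicates 1 and 2 (log2 fold change -4.58, or -3.70 without replicate 1), and the groups did not overlap.

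Ifng rose together with most genes of the circuit that answers its signal. Ifng (gene 15978; chromosome 10, 118441046 to 118445894) had 7.26, 4.66, 8.79, 12.9 and 8.83 CPM in mXTX301 tumours and 0.369, 0.397, 0.0778, 0.308 and 0.12 CPM in vehicle tumours, with a gap of more than an order of magnitude between the lowest treated and the highest vehicle library. Ifng rose 32.8-fold (adjusted p = 1.36e-07), without overlap between the groups. Of the 16 genes of its receptor and feedback circuit, 11 were higher and 1 lower (median 0.70). The receptor genes Ifngr1 and Ifngr2 did not pass (log2 fold changes 0.27 and 0.11; adjusted p = 0.183 and 0.427). Irf1 (gene 16362; chromosome 11, 53770014 to 53778374) had 672, 624, 714, 688 and 600 CPM in mXTX301 and 279, 246, 282, 284 and 296 CPM in vehicle. Irf1 rose 2.38-fold (adjusted p = 1.01e-12), without overlap between the groups. The spread of Irf1 within each group was small beside the step between groups. Batf2, a partner of Irf1 in macrophages, averaged 51.3 ± 2.38 CPM in mXTX301 and 15 ± 3.35 CPM in vehicle. Socs1, which blocks Jak kinases and so limits the response, had 51.2, 44, 58.1, 51 and 43.5 CPM in mXTX301 and 27.4, 27.2, 25.7, 24.8 and 24.2 CPM in vehicle. The member that fell was Usp18, a brake of type I interferon signalling, at 92 ± 11.2 CPM in mXTX301 and 146 ± 31.3 CPM in vehicle (adjusted p = 0.0013). Batf2 rose 3.42-fold and Socs1 1.92-fold (adjusted p of at most 2.42e-07), each without overlap between the groups.

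Effector genes of interferon-gamma rose almost without exception. Of 24, 23 were higher and none lower, with a median log2 fold change of 2.03, and in 23 all mXTX301 libraries lay above all vehicle libraries. Lap3, an aminopeptidase gene, did not pass (log2 fold change 0.05). Gbp2b (gene 14468; chromosome 3, 142594816 to 142619179), which encodes a guanylate-binding protein that attacks vacuoles of pathogens, had 18.9, 24, 21.4, 47 and 49 CPM in mXTX301 and 0.465, 0.315, 0.0622, 0.39 and 0.015 CPM in vehicle. Gbp10 averaged 25.4 ± 5.74 CPM in mXTX301 and 0.74 ± 0.356 CPM in vehicle. Gbp6 averaged 236 ± 28.7 CPM in mXTX301 and 39.8 ± 5.8 CPM in vehicle. Gbp2b rose 125-fold, Gbp10 34.5-fold and Gbp6 5.93-fold (adjusted p of at most 1.38e-08), each without overlap between the groups. Gbp2 had 1235, 1091, 1318, 1383 and 1048 CPM in mXTX301 and 278, 182, 222, 289 and 217 CPM in vehicle. Cxcl9 (gene 17329; chromosome 5, 92321331 to 92328079), the chemokine that draws activated T cells, had 228, 170, 265, 259 and 196 CPM in mXTX301 and 42.2, 24.6, 18.5, 34.5 and 26.2 CPM in vehicle. Serpina3f, a serine protease inhibitor gene, rose 22.4-fold (22.1 ± 4.57 CPM in mXTX301, 0.981 ± 0.274 CPM in vehicle; adjusted p = 1.01e-12). Gbp2 rose 5.11-fold and Cxcl9 7.65-fold (adjusted p of at most 7.94e-10), each without overlap between the groups. Members of the Gbp, Tgtp, Serpina3, H2, Klrc, Ly6, Fcgr and Lilr families and the ferritin genes have near-identical copies, so the counts of a single member are uncertain by however reads were shared among copies.

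Among genes named for type I interferon more fell than rose. Of 20, 2 were higher and 11 lower, with a median log2 fold change of -0.41. Zbp1, a sensor of left-handed nucleic acid that triggers necroptosis, was the larger rise at 514 ± 53.7 CPM in mXTX301 and 304 ± 51.2 CPM in vehicle. Oas1a, an antiviral oligoadenylate synthetase gene, had 80.4, 106, 83.6, 79.3 and 90.3 CPM in mXTX301 and 117, 106, 171, 130 and 144 CPM in vehicle. Zbp1 rose 1.69-fold (adjusted p = 8.13e-06), without overlap between the groups. Oas1a fell 1.52-fold (adjusted p = 0.000254), without overlap between the groups. This count depended on the libraries used, more than the median did: 4 members were lower (median -0.37) without the 3 libraries over 100 CPM of epidermal keratins, where 20.8% of all genes were lower, and 3 (median -0.35) without all 5 skin-rich libraries, where 15.2% of all genes were. It was 8 when only the 10 day 7 libraries entered the fit and 7 without vehicle replicate 3, vehicle replicate 5, mXTX301 replicate 4 or mXTX301 replicate 5 alone.

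**Figure D2:**
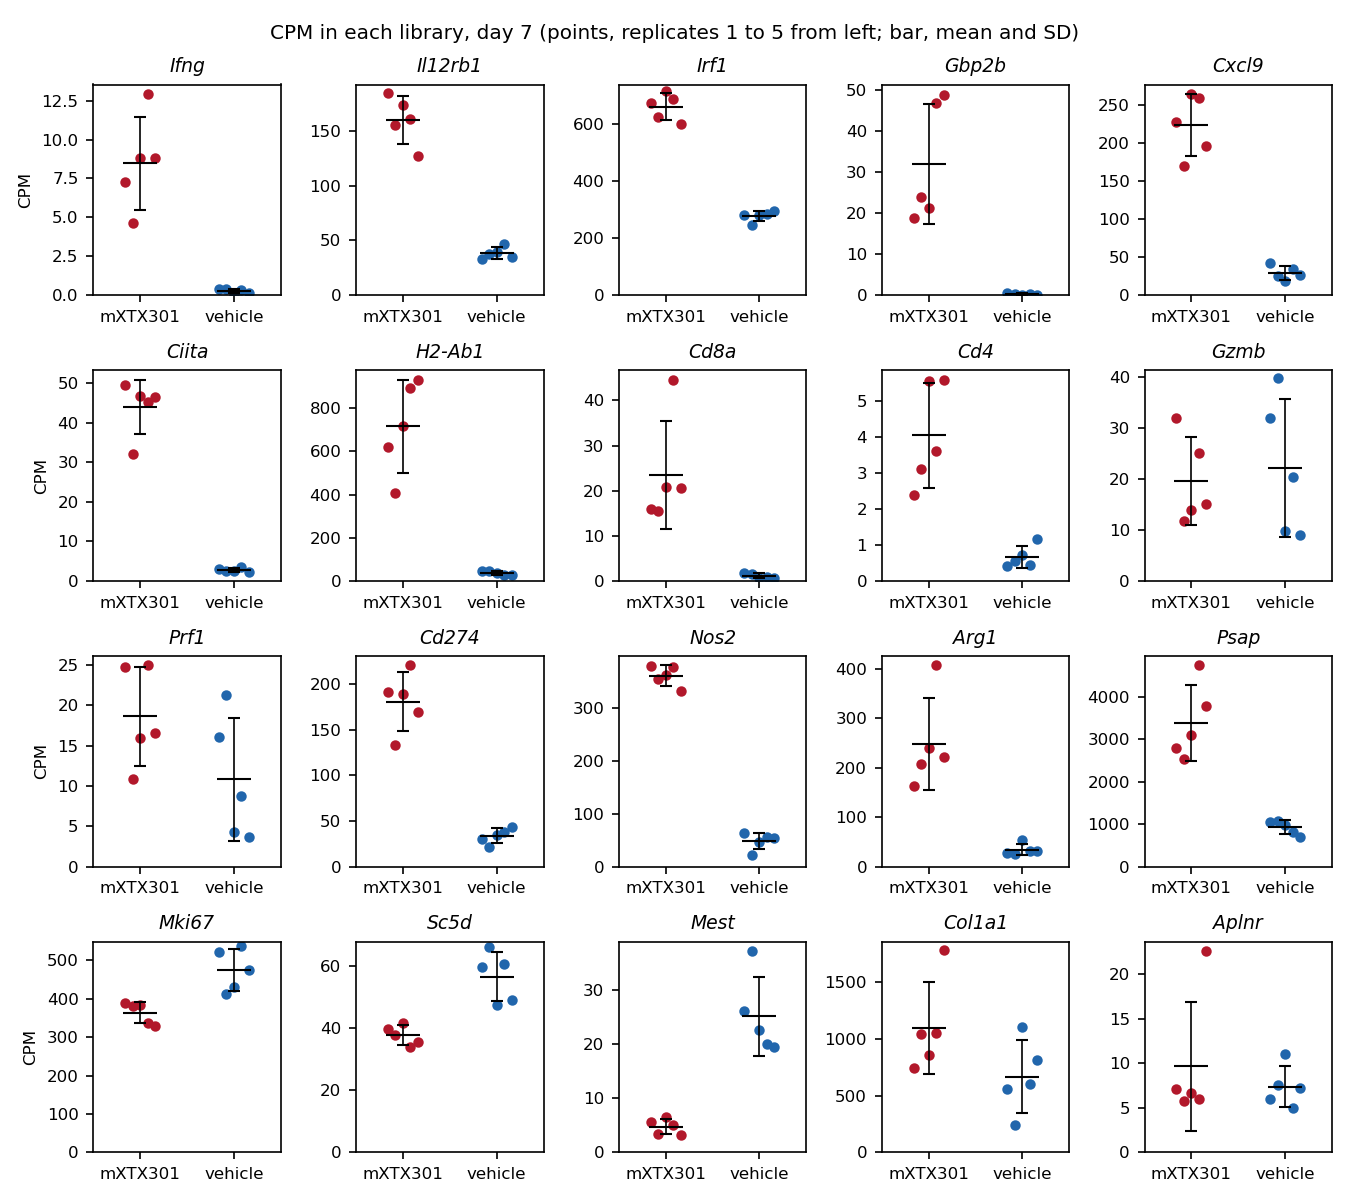
CPM of 20 genes in each day 7 library on linear axes that start at 0; points are replicates 1 to 5 of mXTX301 (left, red) and vehicle (right, blue), and the bar gives the mean and SD (n = 5 each). Ifng, Irf1, Ciita, H2-Ab1 and Nos2 separate the groups, Mest, Sc5d and Mki67 lie lower in mXTX301, and Gzmb, Prf1, Col1a1 and Aplnr overlap.

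Antigen presentation rose on both arms. In the class I pathway 15 of 18 genes were higher and none lower (median 0.61), with all 15 free of overlap. Nlrc5, the class I transactivator, had 407, 315, 384, 370 and 352 CPM in mXTX301 and 143, 102, 140, 161 and 174 CPM in vehicle. H2-K1, a classical heavy chain, had 4214, 4379, 4513, 4828 and 4663 CPM in mXTX301 and 3056, 3123, 2951, 2961 and 2912 CPM in vehicle. Tap1 and Tap2, the chains of the peptide transporter, rose 1.77-fold and 1.71-fold, and Psmb8, an immunoproteasome subunit, 1.8-fold, at 432, 450, 452, 456 and 438 CPM in mXTX301 and 261, 244, 235, 259 and 239 CPM in vehicle. Nlrc5 rose 2.54-fold and H2-K1 1.51-fold (adjusted p of at most 1.04e-06), each without overlap between the groups. Of 18 constitutive proteasome subunits 12 were lower (66.7%, beside 22.7% of all genes) and none higher, by small amounts (median -0.20). Psmc1, an ATPase of the cap, had 149, 174, 164, 165 and 170 CPM in mXTX301 and 216, 217, 216, 217 and 211 CPM in vehicle. Psmd1, a scaffold of the cap, averaged 281 ± 16.2 CPM in mXTX301 and 367 ± 15.8 CPM in vehicle. Psmc1 fell 1.31-fold and Psmd1 1.3-fold (adjusted p of at most 7.84e-06), each without overlap between the groups. Without the 5 skin-rich libraries, where 15.2% of all genes were lower, 5 of the 18 were lower.

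In the class II pathway 12 of 14 genes were higher and none lower, with a median log2 fold change of 2.36. Ciita, the class II transactivator (gene 12265; chromosome 16, 10480014 to 10531064), had 49.5, 32.1, 46.7, 45.4 and 46.5 CPM in mXTX301 and 3.03, 2.4, 2.6, 3.56 and 2.28 CPM in vehicle. H2-Ab1, a class II chain, had 622, 408, 719, 895 and 930 CPM in mXTX301 and 47.5, 45, 35.9, 27.5 and 26.5 CPM in vehicle. Cd74, the invariant chain that guides class II molecules to the endosome, had 1109, 787, 1226, 1533 and 1625 CPM in mXTX301 and 81.5, 78.5, 67.3, 64.5 and 49.7 CPM in vehicle. Ciita rose 15.9-fold, H2-Ab1 19.6-fold and Cd74 18.4-fold (adjusted p of at most 1.49e-09), each without overlap between the groups. H2-DMb1, part of the peptide editor, averaged 116 ± 14.9 CPM in mXTX301 and 27.8 ± 5.69 CPM in vehicle. H2-DMb1 rose 4.18-fold (adjusted p = 3.22e-11), without overlap between the groups. Replicate 2 of mXTX301 was the lowest treated library for all 4. H2-Eb2 and Ifi30, a thiol reductase gene of the same compartment, did not pass (adjusted p = 0.0835 and 0.58).

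T-cell genes rose broadly. Of 19 tested genes of CD3 and T-cell receptor signalling, 18 were higher and none lower (median 2.44), and in all 18 the groups did not overlap. Sit1, an adaptor gene, did not pass. Cd3e had 4.29, 3.51, 4.68, 8.53 and 4.7 CPM in mXTX301 and 0.608, 0.616, 0.218, 0.617 and 0.51 CPM in vehicle. Cd8a (gene 12525; chromosome 6, 71373427 to 71379171), a chain of the co-receptor of cytotoxic T cells, had 16, 15.5, 20.9, 44.5 and 20.5 CPM in mXTX301 and 1.77, 1.64, 0.56, 0.958 and 0.66 CPM in vehicle. Replicate 4 of mXTX301 stood above the other treated libraries for both, and also for Cd3d (6, 5.84, 7.42, 14.7 and 7.13 CPM in mXTX301, 1.06, 0.794, 0.638, 0.812 and 0.78 CPM in vehicle). Cd3e rose 9.95-fold, Cd8a 20.8-fold and Cd3d 10-fold (adjusted p of at most 1.4e-06), each without overlap between the groups. Cd4, carried by helper T cells and some myeloid cells, had 2.39, 3.1, 5.55, 3.6 and 5.59 CPM in mXTX301 and 0.405, 0.547, 0.715, 0.455 and 1.16 CPM in vehicle. Themis, needed for T-cell development, averaged 2.28 ± 1.17 CPM in mXTX301 and 0.0732 ± 0.0515 CPM in vehicle. Cd2, an adhesion receptor gene, averaged 6.42 ± 2.85 CPM in mXTX301 and 0.898 ± 0.233 CPM in vehicle. Cd4 rose 6.17-fold, Themis 29.6-fold and Cd2 7.13-fold (adjusted p of at most 1.65e-05), each without overlap between the groups. Foxp3, the marker of regulatory T cells, overlapped at 0.661, 0.567, 0.604, 0.512 and 0.43 CPM in mXTX301 and 0.631, 0.219, 0.42, 0.292 and 0.885 CPM in vehicle (log2 fold change 0.18 ± 0.427, SE; adjusted p = 0.752).

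Stimulatory and inhibitory receptors rose side by side. Among co-stimulatory receptors and ligands 15 of 17 were higher and none lower (median 1.68). Slamf7 had 50.5, 33.5, 47.7, 69.6 and 49.2 CPM in mXTX301 and 7.95, 8.87, 10.6, 8.24 and 7.69 CPM in vehicle. Cd86, a ligand of CD28 on antigen-presenting cells, had 19.2, 12.8, 19.5, 22.5 and 23.9 CPM in mXTX301 and 4.72, 4.38, 4.77, 3.96 and 4.23 CPM in vehicle. Cd40 averaged 52.6 ± 3.41 CPM in mXTX301 and 25.5 ± 4.58 CPM in vehicle. Slamf7 rose 5.77-fold, Cd86 4.43-fold and Cd40 2.07-fold (adjusted p of at most 2.94e-07), each without overlap between the groups. Among inhibitory receptors and ligands 15 of 17 were higher (median 1.66). Cd274, which encodes PD-L1, had 191, 133, 189, 221 and 170 CPM in mXTX301 and 30.8, 21.7, 34.6, 38.1 and 43.4 CPM in vehicle. Entpd1, the ectonucleotidase CD39, averaged 62.2 ± 14 CPM in mXTX301 and 12 ± 2.54 CPM in vehicle. Tnfrsf14, the receptor HVEM, ranged over 17.5 to 26.6 CPM in mXTX301 and 5.92 to 8.16 CPM in vehicle. Cd274 rose 5.37-fold, Entpd1 5.16-fold and Tnfrsf14 3.15-fold (adjusted p of at most 1.47e-07), each without overlap between the groups. Lgals9, a ligand of TIM-3, was the 1 that fell, at 77.2 to 106 CPM in mXTX301 and 114 to 126 CPM in vehicle (log2 fold change -0.44, adjusted p = 0.00012).

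Transcription factors of T-cell state were divided, with 9 higher, 2 lower and 8 not passing among 19. Tox, linked to exhausted T cells, had 0.661, 0.736, 0.62, 0.405 and 0.43 CPM in mXTX301 and 0.0715, 0.11, 0.14, 0.0325 and 0.15 CPM in vehicle, low values that did not overlap. Bcl6 averaged 46 ± 3.52 CPM in mXTX301 and 25.7 ± 2.6 CPM in vehicle. Id2, an inhibitor of E proteins, averaged 39.5 ± 11.4 CPM in mXTX301 and 11.1 ± 3.42 CPM in vehicle. Tox rose 5.59-fold, Bcl6 1.79-fold and Id2 3.54-fold (adjusted p of at most 0.000244), each without overlap between the groups. Runx3, a factor of the CD8 lineage, averaged 24.5 ± 5.54 CPM in mXTX301 and 11.9 ± 2.34 CPM in vehicle. Tcf7, a factor of naive and memory T cells that also acts in WNT signalling of epithelial cells, had 17.9, 16.4, 15.8, 18.4 and 15.2 CPM in mXTX301 and 20.1, 22.5, 18.3, 19.2 and 19.7 CPM in vehicle (log2 fold change -0.25 ± 0.0776, SE; adjusted p = 0.00844), and did not pass without the 5 skin-rich libraries at a log2 fold change of -0.24. Runx3 rose 2.07-fold (adjusted p = 6.95e-05), without overlap between the groups.

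Killing genes rose in part. Of 15 granule and death ligand genes 7 were higher and none lower (median 0.81). Nkg7, a granule membrane protein gene, had 13.7, 11.8, 15.9, 27.9 and 17.2 CPM in mXTX301 and 3.18, 3.81, 1.04, 2.71 and 1.44 CPM in vehicle. Ctsw, a cathepsin gene of killer cells, had 10.9, 7.85, 9.98, 21 and 9.76 CPM in mXTX301 and 2.37, 3.63, 1.49, 1.38 and 1.38 CPM in vehicle. Srgn, the granule proteoglycan serglycin, which myeloid cells make too, averaged 115 ± 26.3 CPM in mXTX301 and 39.9 ± 8.04 CPM in vehicle. Nkg7 rose 7.08-fold, Ctsw 5.79-fold and Srgn 2.89-fold (adjusted p of at most 1.62e-05), each without overlap between the groups. Gzmb, the granzyme that activates caspases, had 31.9, 11.8, 13.8, 25.1 and 15.1 CPM in mXTX301 and 32, 39.7, 9.7, 20.3 and 9.01 CPM in vehicle (log2 fold change -0.18 ± 0.411, SE; adjusted p = 0.738). Prf1, the pore-forming perforin, had 24.7, 10.9, 15.9, 25 and 16.6 CPM in mXTX301 and 16, 21.2, 4.32, 8.77 and 3.73 CPM in vehicle (log2 fold change 0.78 ± 0.505, SE; adjusted p = 0.208). For both, vehicle replicates 1 and 2 were within the range of the treated libraries or above it while vehicle replicates 3 and 5 were low. Gzmk was the 1 granzyme gene of 8 that passed, at 0.237, 0.445, 0.961, 1.92 and 1.29 CPM in mXTX301 and 0.0119, 0.0274, 0.0156, 0.0325 and 0 CPM in vehicle.

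NK receptors were higher in 8 of 13 genes and lower in none (median 1.62). Klrk1, which encodes NKG2D, had 13.7, 9, 12.1, 21.4 and 11.7 CPM in mXTX301 and 3.36, 3.54, 1.85, 3.04 and 2.88 CPM in vehicle. Klrc1, an NKG2A gene that activated CD8 T cells also carry, had 8.43, 5.92, 8.37, 13.7 and 7.95 CPM in mXTX301 and 1.37, 2.33, 0.435, 1.35 and 0.585 CPM in vehicle. Ncr1, the receptor most restricted to NK cells and related innate lymphocytes, overlapped at 1.42, 0.337, 0.728, 1.39 and 0.898 CPM in mXTX301 and 0.858, 1.64, 0.451, 0.812 and 0.495 CPM in vehicle (log2 fold change 0.16 ± 0.478, SE; adjusted p = 0.806). Klrk1 rose 4.62-fold and Klrc1 7.28-fold (adjusted p of at most 8.17e-05), each without overlap between the groups. Of 10 tested B-cell and plasma-cell genes 3 were higher and 3 lower, close to the 25.7% and 22.7% of all genes. Cd22, a B-cell co-receptor, averaged 3.29 ± 1.13 CPM in mXTX301 and 0.774 ± 0.359 CPM in vehicle. Cd79a, a chain of the B-cell receptor, had 1.47 to 2.04 CPM in mXTX301 and 2.94 to 3.63 CPM in vehicle, and did not pass without the skin-rich libraries at a log2 fold change of -0.86. Tnfrsf13c, a receptor of the survival factor BAFF, ranged over 1.61 to 2.88 CPM in mXTX301 and 4.49 to 12.1 CPM in vehicle. Cd22 rose 4.25-fold (adjusted p = 7.82e-05), without overlap between the groups. Cd79a fell 1.78-fold and Tnfrsf13c 3-fold (adjusted p of at most 0.00591), each without overlap between the groups. The B-cell gene Ms4a1 was too low to be tested, and without the 5 skin-rich libraries 1 of the list was lower.

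**Figure D3:**
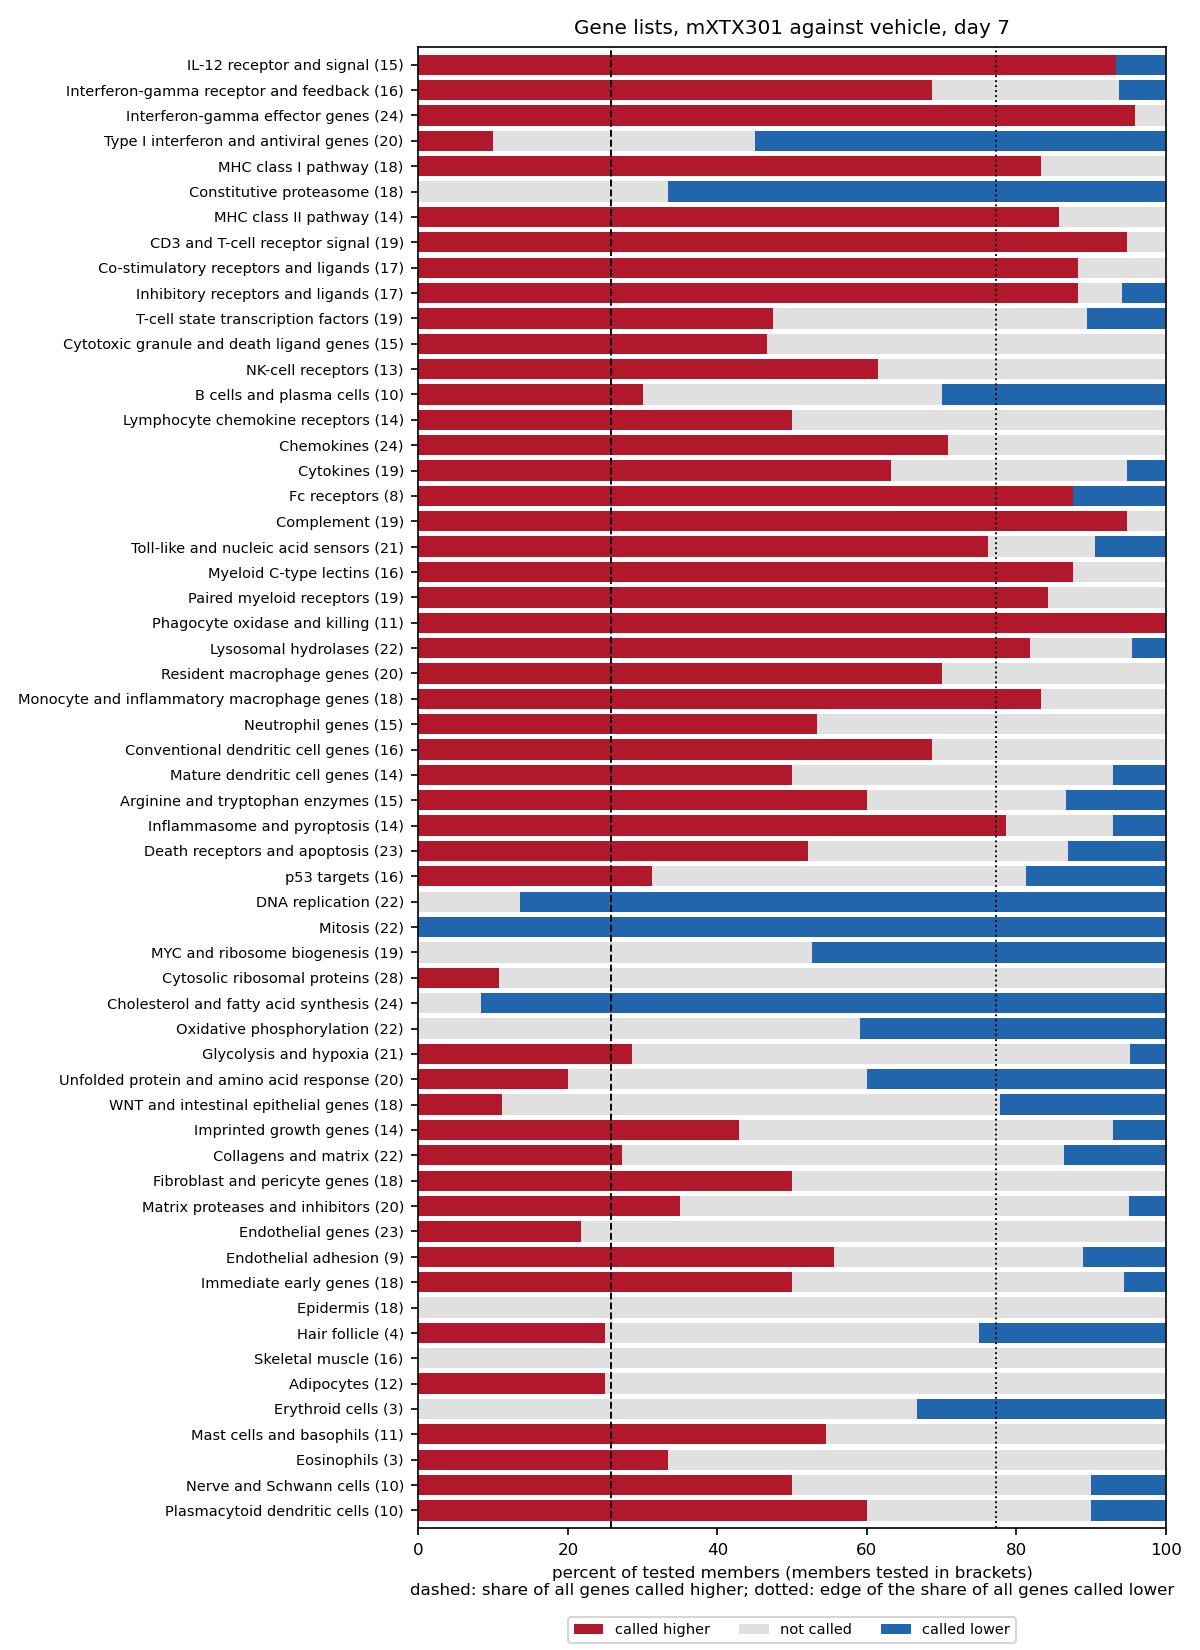
Each bar is 1 of 58 gene lists (tested members in brackets), split into the percent of members called higher (red), not called (grey) and called lower (blue) in mXTX301 against vehicle at day 7. The dashed line is the 25.7% of all genes called higher and the dotted line marks the 22.7% called lower; Fc receptor, complement and phagocyte oxidase lists are red over most of their length, and mitosis, DNA replication and cholesterol lists blue.

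Many chemokines and their receptors were higher. Lymphocyte chemokine receptors were higher in 7 of 14 genes and lower in none. Cxcr6, the receptor of Cxcl16 on effector T cells, had 10.7, 9.35, 12.7, 30 and 12.4 CPM in mXTX301 and 0.81, 0.986, 0.373, 0.325 and 0.375 CPM in vehicle. Cxcr3, the receptor of Cxcl9, averaged 3.05 ± 1.08 CPM in mXTX301 and 0.543 ± 0.208 CPM in vehicle. Xcr1, carried by cross-presenting dendritic cells, had 1.76, 0.797, 1.07, 2.52 and 1.65 CPM in mXTX301 and 0.0834, 0.192, 0.0622, 0.0325 and 0.06 CPM in vehicle. Cxcr6 rose 25.8-fold, Cxcr3 5.58-fold and Xcr1 17.5-fold (adjusted p of at most 1.77e-05), each without overlap between the groups. Chemokines were higher in 17 of 24 genes and lower in none (median 1.26), and in 9 of them the groups did not overlap. Ccl5 had 97.8, 79.6, 124, 130 and 83.3 CPM in mXTX301 and 52.8, 32.5, 45.2, 43.6 and 40.6 CPM in vehicle. Cxcl16 had 144, 88.9, 167, 198 and 131 CPM in mXTX301 and 56.4, 58.2, 35.6, 35.5 and 30 CPM in vehicle. Cxcl14 had 19.9, 33.7, 30, 42.8 and 46.4 CPM in mXTX301 and 3.85, 4.15, 11.7, 5.28 and 10.7 CPM in vehicle. Ccl5 rose 2.4-fold, Cxcl16 3.38-fold and Cxcl14 4.85-fold (adjusted p of at most 9.07e-05), each without overlap between the groups.

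Cytokine genes were higher in 12 of 19 and lower in 1 (median 0.99). Genes of the interleukin-1 family separated the groups. Il1b had 40.1, 21.9, 37.9, 51.9 and 62.5 CPM in mXTX301 and 7.04, 4.82, 8.68, 7.51 and 9.64 CPM in vehicle (adjusted p = 4.73e-06). Il1a had 3.37, 2.65, 3.5, 9.53 and 5.12 CPM in mXTX301 and 0.203, 0.164, 0.14, 0.422 and 0.81 CPM in vehicle. Il1rn, the natural antagonist of both, had 82, 62.6, 86.8, 127 and 117 CPM in mXTX301 and 14.6, 12.8, 17.7, 20.2 and 17.6 CPM in vehicle. Il1a rose 13.9-fold and Il1rn 5.74-fold (adjusted p of at most 1.53e-06), each without overlap between the groups. Il15, a survival factor of CD8 T cells and NK cells, averaged 20.2 ± 0.918 CPM in mXTX301 and 12 ± 2 CPM in vehicle. Il10, which restrains inflammation, rose with overlap, at 0.543, 0.843, 0.527, 1.41 and 1.93 CPM in mXTX301 and 0.107, 0.329, 0.591, 0.146 and 0.195 CPM in vehicle (adjusted p = 0.00309). Il15 rose 1.68-fold (adjusted p = 2.34e-06), without overlap between the groups. Tgfb3, a transforming growth factor gene, was the 1 that fell (log2 fold change -0.50, adjusted p = 0.0028).

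Receptors and soluble factors of myeloid cells rose widely. Fc receptors, which bind antibody, were higher in 7 of 8 genes. Fcgr4 had 65.4, 56.9, 77, 115 and 94.9 CPM in mXTX301 and 9.6, 15.5, 12.7, 9.49 and 9.7 CPM in vehicle. Fcgr3 averaged 117 ± 38.9 CPM in mXTX301 and 24.9 ± 6.02 CPM in vehicle. Fcgr1 had 91.5, 80.8, 97.2, 128 and 105 CPM in mXTX301 and 45.5, 55.5, 49.4, 41.3 and 34.8 CPM in vehicle. Fcgr4 rose 7.17-fold, Fcgr3 4.71-fold and Fcgr1 2.22-fold (adjusted p of at most 0.000219), each without overlap between the groups. Fcrls, known from microglia and other resident macrophages, was the 1 that fell, at 0.848 to 4.79 CPM in mXTX301 and 4.03 to 25.9 CPM in vehicle, a call that was lost without the 5 skin-rich libraries (log2 fold change -1.65, and -2.46 with them). Fcrls fell 5.5-fold (adjusted p = 0.000332), and the groups overlapped. Complement genes were higher in 18 of 19 (median 1.68). C1qa had 253, 291, 354, 479 and 506 CPM in mXTX301 and 164, 230, 152, 97.4 and 66.2 CPM in vehicle. C2 and Cfb, enzymes of the classical and alternative convertases, averaged 57.9 ± 8.94 and 279 ± 91 CPM in mXTX301, against 14.6 ± 6.26 and 73.1 ± 13.5 CPM in vehicle. C1s1, the classical pathway protease, had 86.5, 104, 63.6, 174 and 293 CPM in mXTX301 and 33.2, 16.5, 26.4, 15.6 and 10.7 CPM in vehicle, with mXTX301 replicate 5 the highest. C1qa rose 2.65-fold, C2 3.96-fold, Cfb 3.81-fold and C1s1 7.02-fold (adjusted p of at most 0.000745), each without overlap between the groups.

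Surface lectins, paired receptors and the killing machinery of phagocytes rose with them. C-type lectins were higher in 14 of 16 genes (median 2.01). Clec4d, a receptor for mycobacterial lipid, had 41.1, 39.1, 54.2, 107 and 73.7 CPM in mXTX301 and 2.9, 1.93, 8.58, 3.62 and 3.52 CPM in vehicle. Clec4e, which encodes Mincle, averaged 20.7 ± 6.97 CPM in mXTX301 and 2.5 ± 0.914 CPM in vehicle. Clec9a, a receptor for dead cells on cross-presenting dendritic cells, averaged 1.1 ± 0.165 CPM in mXTX301 and 0.074 ± 0.0527 CPM in vehicle. Clec4d rose 15.4-fold, Clec4e 8.25-fold and Clec9a 14.2-fold (adjusted p of at most 2.52e-06), each without overlap between the groups. Paired receptors were higher in 16 of 19, among them Lilr4b (80.2 ± 20.2 CPM in mXTX301, 17.2 ± 3.11 CPM in vehicle) and Cd300lf (41.3 ± 13.9 CPM in mXTX301, 9.93 ± 0.172 CPM in vehicle). Lilr4b rose 4.66-fold and Cd300lf 4.16-fold (adjusted p of at most 2.34e-07), each without overlap between the groups. All 11 tested genes of the oxidase and killing list were higher. Nos2, the inducible nitric oxide synthase, had 379, 353, 361, 376 and 332 CPM in mXTX301 and 62.9, 22.6, 46.3, 56.8 and 53.1 CPM in vehicle. Acod1, which makes itaconate, averaged 87.6 ± 20.8 CPM in mXTX301 and 9.59 ± 1.98 CPM in vehicle. Slc11a1, a phagosomal metal transporter gene, averaged 121 ± 27.2 CPM in mXTX301 and 27.6 ± 5.28 CPM in vehicle. Nos2 rose 7.45-fold, Acod1 9.12-fold and Slc11a1 4.38-fold (adjusted p of at most 6.01e-07), each without overlap between the groups.

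Lysosomal genes rose, some of them at high levels. Of 22, 18 were higher and 1 lower (median 0.70), the lower one being the glucuronidase gene Gusb. Psap, the precursor of activators of lipid breakdown, had 2783, 2541, 3100, 4755 and 3774 CPM in mXTX301 and 1045, 1084, 981, 826 and 689 CPM in vehicle. The protease gene Ctsb had 1428, 1678, 1557, 2411 and 2500 CPM in mXTX301 and 574, 680, 826, 603 and 608 CPM in vehicle. Tpp1, a lysosomal peptidase, averaged 98.5 ± 15.3 CPM in mXTX301 and 60 ± 3.28 CPM in vehicle. Psap rose 3.67-fold, Ctsb 2.91-fold and Tpp1 1.64-fold (adjusted p of at most 6.57e-07), each without overlap between the groups. The 5 largest gains in CPM were those of Psap, Fth1, Ftl1, H2-K1 and Ctsb. Fth1, a ferritin gene, had 3004, 2581, 3066, 4487 and 3937 CPM in mXTX301 and 1232, 1285, 1267, 1144 and 1076 CPM in vehicle. Ftl1, the other ferritin chain, averaged 2743 ± 641 CPM in mXTX301 and 1096 ± 135 CPM in vehicle. Fth1 rose 2.84-fold and Ftl1 2.5-fold (adjusted p of at most 5.8e-06), each without overlap between the groups.

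Markers of several myeloid cell types rose, each list in part. Genes of monocytes and inflammatory macrophages were higher in 15 of 18 (median 1.55). Ly6i had 17.3, 9.77, 22.7, 24.5 and 18.3 CPM in mXTX301 and 1.5, 1.29, 1.12, 0.876 and 0.855 CPM in vehicle. F10, a coagulation factor that macrophages make, averaged 23.4 ± 9.66 CPM in mXTX301 and 2.47 ± 0.609 CPM in vehicle. Ly6a had 340, 329, 342, 522 and 614 CPM in mXTX301 and 74.1, 72.7, 132, 82.1 and 83.8 CPM in vehicle. Ly6i rose 16.4-fold, F10 9.48-fold and Ly6a 4.83-fold (adjusted p of at most 2.49e-08), each without overlap between the groups. Resident macrophage genes were higher in 14 of 20 (median 1.57), with Stab1 at 230.1 ± 26.5 CPM in mXTX301 and 79.1 ± 12.5 CPM in vehicle and Msr1 at 105 ± 20.2 CPM in mXTX301 and 35.6 ± 7.86 CPM in vehicle. Stab1 rose 2.91-fold and Msr1 2.93-fold (adjusted p of at most 2.65e-06), each without overlap between the groups. That count was 9 when only the 10 day 7 libraries entered the fit, and in 6 members the groups did not overlap. The mean log2 CPM of the resident macrophage list overlapped, at 3.772 to 5.794 in mXTX301 and 2.562 to 4.751 in vehicle. Neutrophil genes were higher in 8 of 15 and lower in none, and their summed CPM overlapped at 222 to 293 in mXTX301 and 194 to 367 in vehicle. Mmp8, a granule collagenase, had 4.32, 2.96, 4.01, 11.8 and 9.04 CPM in mXTX301 and 0.345, 0.192, 0.56, 0.568 and 0.69 CPM in vehicle. Csf3r, the receptor of G-CSF, had 22.7, 15.7, 24.6, 32.1 and 31 CPM in mXTX301 and 3.01, 4.17, 4.65, 3.04 and 4.14 CPM in vehicle. Ngp, a granule gene of immature neutrophils, was at 0.405 to 2.05 CPM in mXTX301 and 0 to 0.0487 CPM in vehicle, where 3 libraries held no count. Mmp8 rose 13.6-fold and Csf3r 6.63-fold (adjusted p of at most 1.35e-06), each without overlap between the groups. Cxcr2, the receptor that guides neutrophils, overlapped, at 0.577, 0.506, 0.961, 1.09 and 0.43 CPM in mXTX301 and 0.298, 0.26, 0.358, 0.211 and 1.4 CPM in vehicle (adjusted p = 0.573), with vehicle replicate 5 the highest of all.

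Genes of conventional dendritic cells were higher in 11 of 16 and lower in none (median 1.28). Irf8, required for cross-presenting dendritic cells, had 85.7, 64.4, 90.4, 121 and 99.8 CPM in mXTX301 and 30.9, 36.2, 23.6, 21.5 and 19.1 CPM in vehicle. Irf8 rose 3.51-fold (adjusted p = 1.35e-06), without overlap between the groups. Genes of mature dendritic cells were higher in 7 of 14 and lower in 1. Apol7c had 3.26, 0.537, 3.1, 4.46 and 2.99 CPM in mXTX301 and 0.0357, 0.0274, 0.0622, 0.0162 and 0.195 CPM in vehicle, with mXTX301 replicate 2 well below the other treated libraries and still above vehicle. Apol7c rose 41.7-fold (adjusted p = 5.67e-06), without overlap between the groups. The log2 fold change of Apol7c was 5.38, and 6.26 without vehicle replicate 5, the highest vehicle library. Il15ra, which presents interleukin-15, averaged 71.8 ± 4.72 CPM in mXTX301 and 26 ± 5.58 CPM in vehicle. Fscn1, an actin-bundling gene that tumour cells also express, fell, at 500, 544, 567, 469 and 489 CPM in mXTX301 and 787, 745, 753, 787 and 687 CPM in vehicle. Among 10 tested genes of plasmacytoid dendritic cells 6 were higher, while Spib, a factor of these cells and of B cells, was lower at 10.6, 2.39, 9.81, 19.6 and 8.73 CPM in mXTX301 and 180, 150, 36.5, 32.1 and 8.88 CPM in vehicle (adjusted p = 0.00358). Il15ra rose 2.76-fold (adjusted p = 2.58e-10), without overlap between the groups. Fscn1 fell 1.46-fold (adjusted p = 3.84e-07), without overlap between the groups. Siglech, the surface marker of these cells, did not pass (adjusted p = 0.996).

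**Figure D4:**
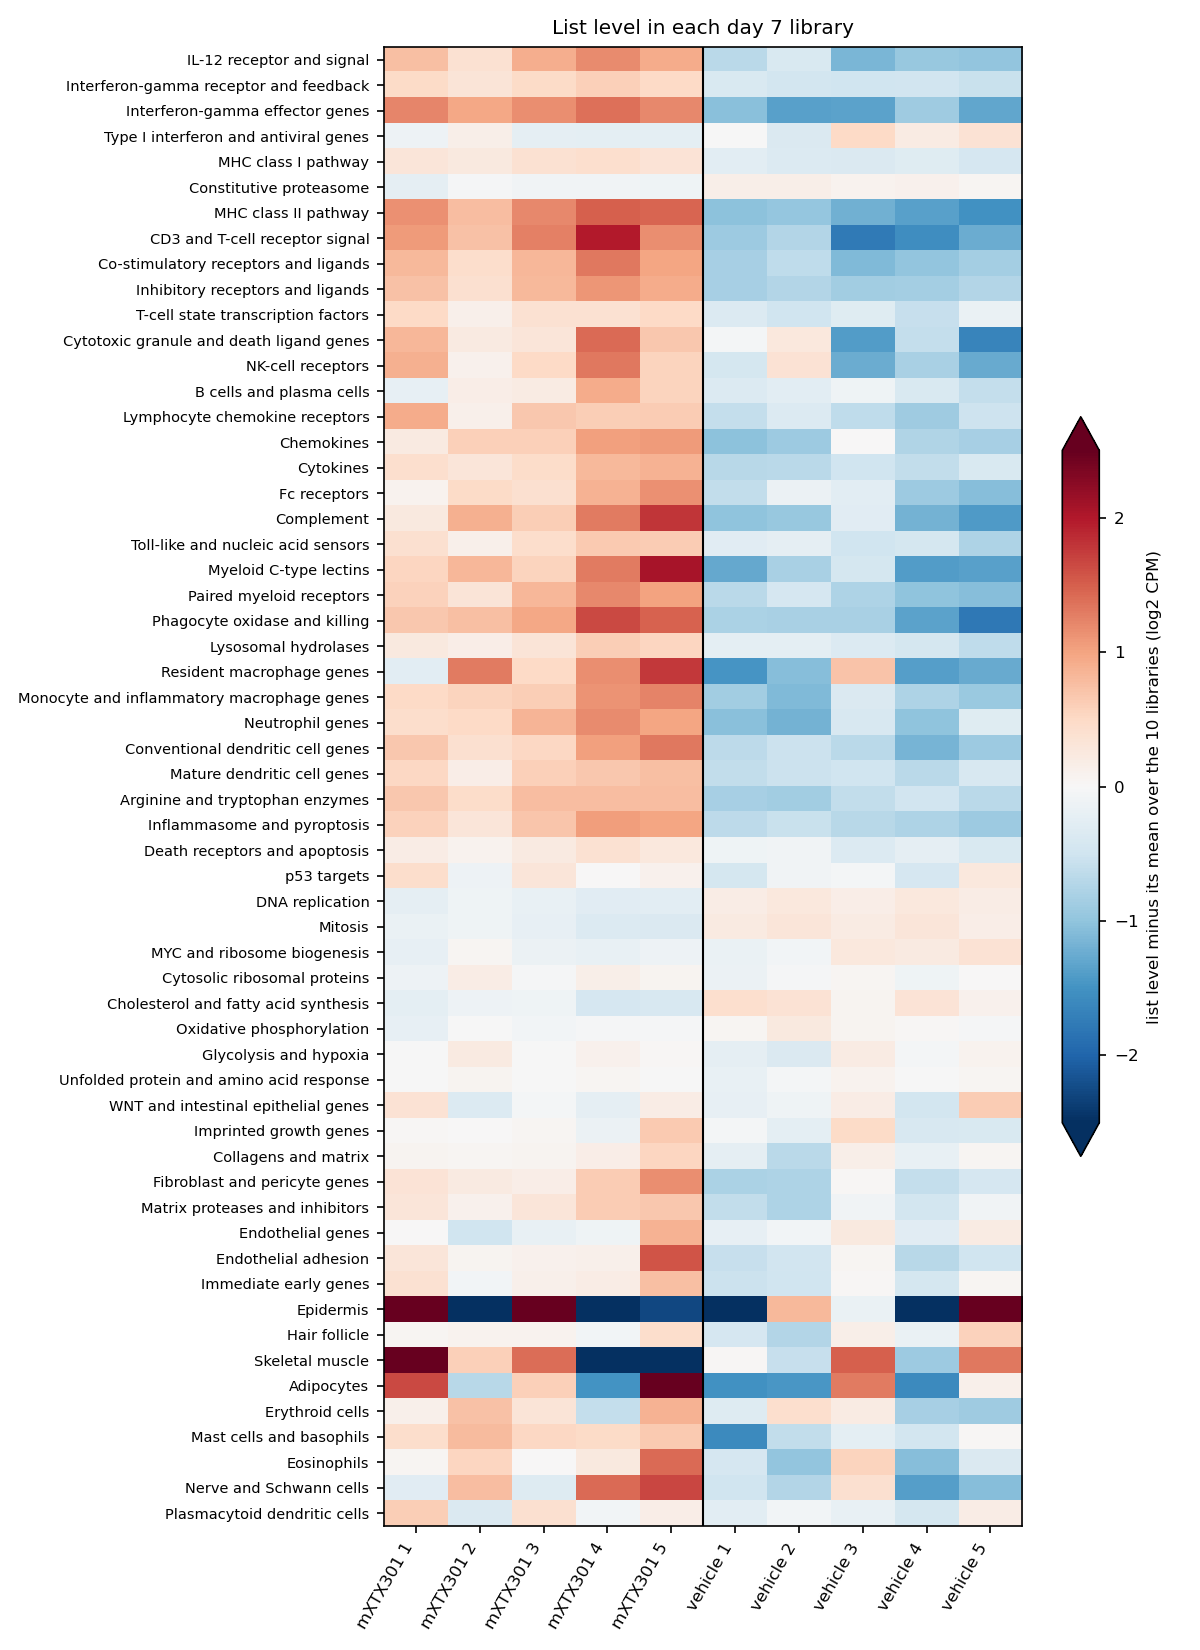
Rows are the 58 gene lists and columns the 10 day 7 libraries, mXTX301 left of the line and vehicle right; colour is the list's mean log2 CPM in that library minus its mean over the 10 libraries, and arrows on the scale mark values beyond 2.5. The interferon-gamma, MHC, CD3, Fc receptor, complement and monocyte lists lie higher in all 5 mXTX301 libraries than in any vehicle library, the epidermis, skeletal muscle and adipocyte rows vary library by library in both groups, and mXTX301 replicate 5 is high for endothelial adhesion, adipocyte and nerve genes.

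Innate sensors rose in 16 of 21 genes and fell in 2. Nod1, a sensor of bacterial peptidoglycan, averaged 58.8 ± 9.4 CPM in mXTX301 and 24 ± 1.96 CPM in vehicle. Mb21d1, the gene of the DNA sensor cGAS, fell, with 39, 37.7, 36.8, 33.3 and 36.4 CPM in mXTX301 and 57.8, 57, 59.9, 66.3 and 66 CPM in vehicle. Nod1 rose 2.45-fold (adjusted p = 1.1e-07), without overlap between the groups. Mb21d1 fell 1.68-fold (adjusted p = 5.07e-07), without overlap between the groups. The adaptor gene Myd88 was the other, at a log2 fold change of -0.37 (adjusted p = 0.00047). Inflammasome and pyroptosis genes were higher in 11 of 14 (median 1.64). Nlrp3 had 17.7, 12.1, 20.7, 25.7 and 23.2 CPM in mXTX301 and 6.02, 6.73, 4.21, 3.9 and 3 CPM in vehicle. Casp1, the protease that matures interleukin-1 beta, averaged 125 ± 13.5 CPM in mXTX301 and 59.1 ± 7.35 CPM in vehicle. Ninj1, which ruptures the plasma membrane in pyroptosis, averaged 88.2 ± 26.4 CPM in mXTX301 and 18.9 ± 7.14 CPM in vehicle. Nlrp3 rose 4.16-fold, Casp1 2.11-fold and Ninj1 4.67-fold (adjusted p of at most 1.96e-06), each without overlap between the groups.

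Death receptor and apoptosis genes were split, with 12 higher and 3 lower of 23 (median 0.19). Bid had 61.3, 63.2, 63.7, 62.5 and 61.1 CPM in mXTX301 and 45.7, 44, 45.1, 47.5 and 43.1 CPM in vehicle, a small step with very little spread. Tnfrsf1b, a receptor of TNF, averaged 141 ± 28.1 CPM in mXTX301 and 52 ± 5.9 CPM in vehicle. Cflar, an inhibitor of caspase-8, averaged 105 ± 6.88 CPM in mXTX301 and 72 ± 8.52 CPM in vehicle. Bid rose 1.38-fold, Tnfrsf1b 2.72-fold and Cflar 1.46-fold (adjusted p of at most 5.51e-06), each without overlap between the groups. Without mXTX301 replicate 2 only 1 of the list was lower. Of 16 p53 targets 5 were higher (31.2%) and 3 lower (18.8%), beside 25.7% and 22.7% of all genes. Mdm2, the ligase that degrades p53, had 116, 113, 110, 119 and 117 CPM in mXTX301 and 61.5, 58, 73.3, 66 and 84.6 CPM in vehicle. Mdm2 rose 1.67-fold (adjusted p = 5.99e-08), without overlap between the groups. Btg2 and Pmaip1 rose 2.51-fold and 2.29-fold (adjusted p = 0.000189 and 0.000199). Without the 5 skin-rich libraries 1 p53 target was lower.

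Enzymes of arginine and tryptophan use rose in 9 of 15 genes. Arg1, which splits arginine, had 164, 208, 240, 407 and 222 CPM in mXTX301 and 27.3, 25.2, 53.2, 31 and 32.7 CPM in vehicle. Slc7a2, a transporter of arginine, averaged 32 ± 10.4 CPM in mXTX301 and 3.1 ± 1.13 CPM in vehicle. Ido1, which degrades tryptophan, had 30.8, 21.9, 22.7, 17.2 and 35.1 CPM in mXTX301 and 1.11, 1.7, 2.43, 4.24 and 1.75 CPM in vehicle. Arg1 rose 7.33-fold, Slc7a2 10.3-fold and Ido1 11.4-fold (adjusted p of at most 1.83e-07), each without overlap between the groups. Asl, which makes arginine, fell by 0.39 on the log2 scale.

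Proliferation genes fell by small amounts. In the mitosis list all 22 genes were lower (median -0.49) and in the DNA replication list 19 of 22 (median -0.46); in 19 and 17 of them every mXTX301 library lay below every vehicle library. Plk1, a kinase of mitotic entry, had 90.3, 99.4, 89.8, 74.4 and 77.1 CPM in mXTX301 and 136, 138, 144, 151 and 143 CPM in vehicle. Kif20a averaged 111 ± 6.44 CPM in mXTX301 and 179 ± 16.3 CPM in vehicle. Tpx2, a spindle assembly gene, averaged 229 ± 18.9 CPM in mXTX301 and 323 ± 15.1 CPM in vehicle. Plk1 fell 1.65-fold, Kif20a 1.62-fold and Tpx2 1.41-fold (adjusted p of at most 6.86e-07), each without overlap between the groups. Mki67, the standard proliferation marker, had 388, 381, 383, 338 and 330 CPM in mXTX301 and 521, 413, 430, 538 and 474 CPM in vehicle. Of the replication genes, Mcm5, a helicase subunit, had 256, 278, 270, 253 and 260 CPM in mXTX301 and 359, 423, 379, 391 and 366 CPM in vehicle. Fen1 averaged 74.4 ± 5.24 CPM in mXTX301 and 114 ± 14.4 CPM in vehicle. Mki67 fell 1.3-fold, Mcm5 1.46-fold and Fen1 1.53-fold (adjusted p of at most 0.0129), each without overlap between the groups. Rrm1, a subunit of ribonucleotide reductase, averaged 185 ± 16.7 CPM in mXTX301 and 282 ± 33.1 CPM in vehicle. Rrm1 fell 1.52-fold (adjusted p = 3.47e-07), without overlap between the groups.

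Genes of cholesterol and fatty acid synthesis fell, with 22 of 24 lower, none higher and 2 not passing (median -0.53). Sc5d, a desaturase of the late cholesterol pathway, had 39.8, 38, 41.8, 33.9 and 35.5 CPM in mXTX301 and 59.9, 66.3, 47.5, 60.6 and 49.2 CPM in vehicle. Sc5d fell 1.5-fold (adjusted p = 1.89e-05), without overlap between the groups.

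Growth and energy lists gave small shifts that depended on the libraries used. Of 19 genes of MYC and ribosome biogenesis 9 were lower and none higher, such as Nop58 (279 ± 17.7 CPM in mXTX301, 382 ± 53 CPM in vehicle); 16 were lower without vehicle replicate 1, 5 without the 3 libraries over 100 CPM of epidermal keratins and 0 without all 5 skin-rich libraries (median -0.13; Nop58 at -0.35). Of 22 oxidative phosphorylation genes 9 were lower and none higher, such as Sdha (205 ± 6.2 CPM in mXTX301, 231 ± 8.84 CPM in vehicle), with 14 under scaling by total counts, 5 without the 3 libraries and 0 without all 5 (median -0.08; Sdha at -0.16). Nop58 fell 1.37-fold and Sdha 1.13-fold (adjusted p of at most 0.000481), and the groups overlapped for Nop58. Cytosolic ribosomal proteins were higher in 3 of 28 (10.7%, beside 25.7% of all genes) and lower in none. The count of higher members ran from 1 to 5 over the settings tried. Glycolysis and hypoxia genes were higher in 6 of 21 (28.6%, near the 25.7% of all genes) and lower in 1. Among them Aldoa, a glycolytic aldolase, had 1986 ± 156 CPM in mXTX301 and 1408 ± 230.4 CPM in vehicle. Vegfa averaged 226 ± 27.5 CPM in mXTX301 and 153 ± 28.5 CPM in vehicle. Aldoa rose 1.41-fold and Vegfa 1.48-fold (adjusted p of at most 0.00122), each without overlap between the groups. In the unfolded protein and amino acid response 4 genes were higher (20%) and 8 lower (40%) of 20, beside 25.7% and 22.7% of all genes. Without the 5 skin-rich libraries 4 were lower. Slc7a11, the cystine importer, had 105, 67.1, 91.3, 127 and 94.6 CPM in mXTX301 and 34.5, 24.8, 29, 39.2 and 32.9 CPM in vehicle. Slc7a5, an importer of large neutral amino acids, had 404, 447, 433, 374 and 355 CPM in mXTX301 and 535, 589, 680, 681 and 723 CPM in vehicle. Slc7a11 rose 3.02-fold (adjusted p = 1.15e-07), without overlap between the groups. Slc7a5 fell 1.59-fold (adjusted p = 1.7e-07), without overlap between the groups.

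Several of the largest falls without overlap were of genes outside the lists, when genes averaging under 1 CPM were set aside. Over all tested genes 75 called falls were at least 4-fold, and Cilp, Cdh15 and Pramef12 below fell by less. Gad1, a glutamate decarboxylase, had 0.339, 0.215, 0.496, 0.682 and 0.131 CPM in mXTX301 and 5.13, 14.6, 2.47, 1.4 and 1.12 CPM in vehicle. Pde9a, a cyclic GMP phosphodiesterase, had 0.644, 0.307, 0.511, 0.725 and 0.804 CPM in mXTX301 and 12, 5.61, 2.27, 2.65 and 1 CPM in vehicle. Mlph, melanophilin, had 2.19, 0.567, 1.33, 2.79 and 1.83 CPM in mXTX301 and 11.2, 19.5, 9.3, 9.72 and 4.02 CPM in vehicle. Gad1 fell 13.3-fold, Pde9a 7.88-fold and Mlph 6.17-fold (adjusted p of at most 0.00148), each without overlap between the groups. The log2 fold change of Gad1 was -3.73, or -2.76 without vehicle replicate 2, and that of Pde9a -2.98, or -2.27 without vehicle replicate 1. Vehicle replicates 1 and 2 held the highest values of Gad1, as of Il12a, Spib and Cilp. Cilp, a cartilage matrix protein gene, had 56.5, 31.8, 53.6, 65.9 and 44.9 CPM in mXTX301 and 334, 294, 107, 112 and 68.1 CPM in vehicle. Cdh15, a muscle cadherin gene, averaged 1.49 ± 1.02 CPM in mXTX301 and 5.31 ± 1.75 CPM in vehicle. Pramef12 averaged 1.54 ± 0.451 CPM in mXTX301 and 5.2 ± 1.72 CPM in vehicle. Cilp fell 3.62-fold, Cdh15 3.56-fold and Pramef12 3.36-fold (adjusted p of at most 0.00309), each without overlap between the groups. In CPM the largest losses were of Col6a1 and Col6a2, Ptma, Eif5a and Ddit4. Ptma, prothymosin alpha, averaged 1679.6 ± 77.5 CPM in mXTX301 and 2389 ± 159 CPM in vehicle. Eif5a, a translation factor, averaged 1069 ± 110.4 CPM in mXTX301 and 1441 ± 87.5 CPM in vehicle (its call was lost without the 5 skin-rich libraries, at a log2 fold change of -0.33 against -0.43 with them). Ddit4, an inhibitor of mTOR, had 321, 326, 284, 306 and 255 CPM in mXTX301 and 723, 800, 639, 604 and 586 CPM in vehicle. Ptma fell 1.42-fold, Eif5a 1.35-fold and Ddit4 2.25-fold (adjusted p of at most 0.00022), each without overlap between the groups.

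Mest (gene 17294; chromosome 6, 30733506 to 30748466), an imprinted gene of embryonic growth, had 5.61, 3.39, 6.52, 5.03 and 3.22 CPM in mXTX301 and 26.2, 37.2, 22.6, 20 and 19.5 CPM in vehicle, a clean separation. Mest fell 5.28-fold (adjusted p = 6.6e-07), without overlap between the groups. Of 14 imprinted genes, 6 were higher and Mest alone was lower, or 3 lower without vehicle replicate 5. Meg3, a maternally expressed RNA, had 11.1, 23.2, 12.6, 31 and 55.3 CPM in mXTX301 and 1.66, 0.931, 8.96, 1.46 and 7.71 CPM in vehicle. Meg3 rose 6.44-fold (adjusted p = 0.0048), without overlap between the groups. Of 18 tested WNT and intestinal epithelial genes 2 were higher (11.1%) and 4 lower (22.2%), beside 25.7% and 22.7% of all genes. Without the 5 skin-rich libraries 1 was lower. Notum, a secreted WNT inhibitor and WNT target, had 29.9, 25.3, 27.1, 33.1 and 26.7 CPM in mXTX301 and 10.5, 13.9, 10.4, 9.15 and 12.5 CPM in vehicle. Elf3, an epithelial transcription factor, had 0.107 to 0.524 CPM in mXTX301 and 0.81 to 1.22 CPM in vehicle. Notum rose 2.52-fold (adjusted p = 4.49e-07), without overlap between the groups. Elf3 fell 3.82-fold (adjusted p = 0.000203), without overlap between the groups.

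Among stroma genes 1 treated library, mXTX301 replicate 5, was often the highest. Collagens and matrix genes were higher in 6 of 22 (27.3%, near the 25.7% of all genes) and lower in 3 (13.6%, beside 22.7% of all genes). Col1a1, the main collagen I chain, overlapped at 746, 1045, 859, 1050 and 1776 CPM in mXTX301 and 557, 245, 1105, 605 and 817 CPM in vehicle (log2 fold change 0.72 ± 0.367, SE; adjusted p = 0.108), and passed without vehicle replicate 3 (log2 fold change 0.98, adjusted p = 0.0375). Lum, lumican, had 14.4, 22.2, 13.3, 21.1 and 52.3 CPM in mXTX301 and 2.8, 3.26, 13.4, 4.45 and 10.6 CPM in vehicle. The collagen VI chains fell: Col6a1 had 1369, 866, 1390, 1209 and 810 CPM in mXTX301 and 3086, 2566, 2071, 2203 and 1713 CPM in vehicle. Lum rose 3.58-fold (adjusted p = 0.00156), and the groups overlapped. Col6a1 fell 2.06-fold (adjusted p = 0.000412), without overlap between the groups. Col6a2 averaged 865 ± 211 CPM in mXTX301 and 1990.0 ± 499.9 CPM in vehicle. Col6a2 fell 2.3-fold (adjusted p = 0.000232), without overlap between the groups. Fibroblast and pericyte genes were higher in 9 of 18 and lower in none. The 9 that did not pass included Pdgfra (log2 fold change -0.13, edgeR adjusted p = 0.635) and Pdgfrb (0.09, adjusted p = 0.607). Pdpn, podoplanin, had 33.6, 42.3, 43.2, 68.2 and 75.2 CPM in mXTX301 and 10, 9.21, 16.1, 9.45 and 16 CPM in vehicle. Cxcl12, a chemokine of fibroblasts, had 26.3, 69.3, 41.6, 99 and 129 CPM in mXTX301 and 4.65, 5.24, 22.1, 8.63 and 7.24 CPM in vehicle. Thy1, which T cells also carry, averaged 66.5 ± 21.6 CPM in mXTX301 and 27.4 ± 6.55 CPM in vehicle. Pdpn rose 4.32-fold, Cxcl12 7.64-fold and Thy1 2.42-fold (adjusted p of at most 0.000309), each without overlap between the groups. Matrix proteases and inhibitors were higher in 7 (35%) and lower in 1 (5%) of 20, beside 25.7% and 22.7% of all genes. Mmp12, macrophage elastase, had 75.6, 58.9, 81.8, 173 and 108 CPM in mXTX301 and 9.48, 5.24, 11.7, 15.9 and 15.3 CPM in vehicle. Adam8 averaged 276 ± 50.3 CPM in mXTX301 and 76.1 ± 12.4 CPM in vehicle. Mmp19 averaged 30.5 ± 7.9 CPM in mXTX301 and 11.5 ± 2.44 CPM in vehicle. Mmp12 rose 8.63-fold, Adam8 3.63-fold and Mmp19 2.65-fold (adjusted p of at most 4.21e-07), each without overlap between the groups.

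Endothelial genes were higher in 5 of 23 (21.7%, beside 25.7% of all genes) and lower in none (median 0.13). Pecam1 had 48.1, 31.7, 40.9, 48.3 and 90.8 CPM in mXTX301 and 35.6, 38.2, 48.7, 35.8 and 46.6 CPM in vehicle (adjusted p = 0.181). Aplnr, a receptor of sprouting vessels, had 7.11, 5.81, 6.71, 6.01 and 22.6 CPM in mXTX301 and 6, 7.58, 11, 4.97 and 7.23 CPM in vehicle (adjusted p = 0.505). Replicate 5 of mXTX301 was the highest library for both. Vwf, von Willebrand factor, had 17.8, 16.5, 11.4, 13.6 and 52.8 CPM in mXTX301 and 10.9, 6.95, 11.2, 9.48 and 12.4 CPM in vehicle and passed (adjusted p = 0.00455), but not without replicate 5 (log2 fold change 0.54, adjusted p = 0.0643). Without that library the list had 2 members higher and 3 lower. Adhesion genes of vessels were higher in 5 and lower in 1 of 9, and 3 were higher without replicate 5. Icam1, which interferon-gamma and TNF induce on many cell types, had 45.6, 33.5, 54.2, 64.1 and 65.1 CPM in mXTX301 and 22.2, 26.5, 15.2, 12 and 11 CPM in vehicle. Selp, P-selectin, had 2.98, 3.13, 2.56, 1.88 and 16.2 CPM in mXTX301 and 0.548, 0.506, 2.02, 0.812 and 1.74 CPM in vehicle. Ackr1, a venular chemokine receptor, had 1.63, 1.75, 0.93, 2.32 and 10.2 CPM in mXTX301 and 0.167, 0.151, 1.48, 0.162 and 0.225 CPM in vehicle. Icam1 rose 3.02-fold, Selp 4.76-fold and Ackr1 7.73-fold (adjusted p of at most 0.0026), and the groups overlapped for Selp and Ackr1. Without mXTX301 replicate 5 the log2 fold change of Selp was 1.23 (adjusted p = 0.0395), against 2.25 with it, and that of Ackr1 1.93 (adjusted p = 0.0279), against 2.95 with it. Without vehicle replicate 3 that of Ackr1 was 4.24.

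Fat, nerve and vessel genes were highest in the same library, mXTX301 replicate 5, while its skeletal muscle genes (12.1 CPM) and epidermis genes (41.5 CPM) were not. The summed CPM of 12 adipocyte genes was 327 in mXTX301 replicate 5, 35.2 to 117 in the other mXTX301 libraries and 24.5 to 84.4 in vehicle. The 10 nerve and Schwann cell genes summed to 234 CPM in replicate 5, 80.7 to 165 in the other mXTX301 libraries and 81 to 120 in vehicle. The 23 endothelial genes summed to 823 CPM in replicate 5, 337 to 455 in the other mXTX301 libraries and 369 to 507 in vehicle. The part of adjoining tissue in the fibroblast, matrix and endothelial values was not tested. Adipocyte genes were higher in 3 of 12 (Plin1, Fabp4 and Lipe), near the 25.7% of all genes, in 1 without replicate 5 and in 1 to 8 over all settings; Fabp4 had 28.5, 14.1, 20.2, 17 and 96.7 CPM in mXTX301 and 10.9, 12.8, 29.7, 10.1 and 14.3 CPM in vehicle, and neither it (adjusted p = 0.476) nor Plin1 (adjusted p = 0.505) passed without replicate 5. Fabp4 rose 2.27-fold (adjusted p = 0.0387), and the groups overlapped. With single libraries left out, Plin1 lost its call for 6 of the 10 and Fabp4 for 5, and Plin1 did not pass without the skin-rich libraries either (log2 fold change 3.66, against 2.27 with them). Nerve genes were higher in 5 of 10, in 3 without replicate 5, with Mbp, a myelin gene, at 9.22, 15.4, 10.6, 23.7 and 29.6 CPM in mXTX301 and 2.98, 3.29, 5.08, 1.92 and 1.84 CPM in vehicle, and Ncam1 was lower. Mbp rose 5.85-fold (adjusted p = 9.14e-06), without overlap between the groups.

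Skeletal muscle genes summed to 8.91 to 1140 CPM in mXTX301 and 44.8 to 239 CPM in vehicle, and none of 16 passed. Epidermis genes summed to 20.5 to 1120 CPM in mXTX301 and 15.4 to 1150 CPM in vehicle, and none of 18 passed. Mast cell and basophil genes were higher in 6 of 11: Cpa3, the mast cell carboxypeptidase, had 1.44, 3.02, 1.77, 2.17 and 2.41 CPM in mXTX301 and 0.167, 0.274, 1.04, 0.763 and 0.81 CPM in vehicle. Cma1, a chymase, averaged 4.05 ± 1.09 CPM in mXTX301 and 1.29 ± 0.827 CPM in vehicle. Kit, the stem cell factor receptor, averaged 7.45 ± 2.21 CPM in mXTX301 and 3.14 ± 0.34 CPM in vehicle. Cpa3 rose 3.55-fold, Cma1 3.16-fold and Kit 2.37-fold (adjusted p of at most 0.00429), each without overlap between the groups. Immediate early genes, which also respond to handling of tissue, were higher in 9 and lower in 1 of 18. Atf3 had 35.1, 29.7, 32.6, 43.4 and 48 CPM in mXTX301 and 8.44, 9.34, 15.7, 9.02 and 13.6 CPM in vehicle. Zfp36, which destabilises cytokine mRNA, averaged 57.3 ± 10.3 CPM in mXTX301 and 30 ± 3.78 CPM in vehicle, and Ier2 fell, at 57.2 ± 7.34 CPM in mXTX301 and 87.5 ± 6.16 CPM in vehicle. Atf3 rose 3.36-fold and Zfp36 1.91-fold (adjusted p of at most 7.71e-06), each without overlap between the groups. Ier2 fell 1.53-fold (adjusted p = 6.68e-06), without overlap between the groups. The erythroid, eosinophil and hair follicle lists had 3, 3 and 4 tested members, with 0, 1 and 1 higher and 1, 0 and 1 lower.

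The difference between days was tested as the day 7 effect minus the day 4 effect, each against vehicle of its own day. It was positive in 302 genes (1.95%) and negative in 470 (3.04%), 772 in all. The count depended on single libraries: it was 190 without mXTX301 day 7 replicate 4 and 1250 without vehicle day 4 replicate 5, and DESeq2 gave 1474. The difference was positive in 6 of 14 class II genes, 7 of 22 lysosomal genes, 6 of 28 ribosomal protein genes and 5 of 18 immediate early genes. The log2 effect on H2-Ab1 was 4.29 at day 7 and 2.20 at day 4, a difference of 2.09 ± 0.45 (SE; edgeR adjusted p = 0.0156). Cd4 stood at 2.62 at day 7 and 0.55 at day 4 (difference 2.07 ± 0.575, adjusted p = 0.0382). Il1b, at 2.51 at day 7 and 0.21 at day 4, and Clec4d, at 3.94 at day 7 and 1.70 at day 4, were among the 5 most positive differences, with Prss46, a testis serine protease gene (3.97 at day 7, 1.13 at day 4), and Fabp4 (1.18 at day 7, -1.05 at day 4). Psap differed too, at 1.87 at day 7 and 0.87 at day 4. For Fabp4 the day 7 effect was only 0.36 without mXTX301 day 7 replicate 5 (edgeR adjusted p = 0.476).

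Mitosis genes had 7 of 22 differences negative and DNA replication genes 3 of 22. For Plk1 the effect was -0.72 at day 7 and -0.32 at day 4 (adjusted p of the difference = 0.0322). Among the most negative differences were those of Cilp, Pcdhb16, Lcor and Hap1, with effects on Cilp of -1.86 at day 7 and 0.24 at day 4 and on Lcor, a nuclear receptor corepressor gene, of -0.50 at day 7 and 0.63 at day 4. Il12a had an effect of -4.58 at day 7 and 1.16 at day 4 (adjusted p of the difference = 0.0201). Ifng, at 5.04 at day 7 and 4.36 at day 4, had no called difference (0.67 ± 0.722, adjusted p = 0.585), nor had Gbp2b, Cxcl9 or Irf1. Gzmb was at -0.18 at day 7 and 1.34 at day 4, and the difference of -1.52 ± 0.584 did not pass (adjusted p = 0.114); the same held for Prf1 (0.78 at day 7, 1.98 at day 4, adjusted p = 0.299) and Ncr1 (0.16 at day 7, 1.29 at day 4, adjusted p = 0.301).

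**Figure D5:**
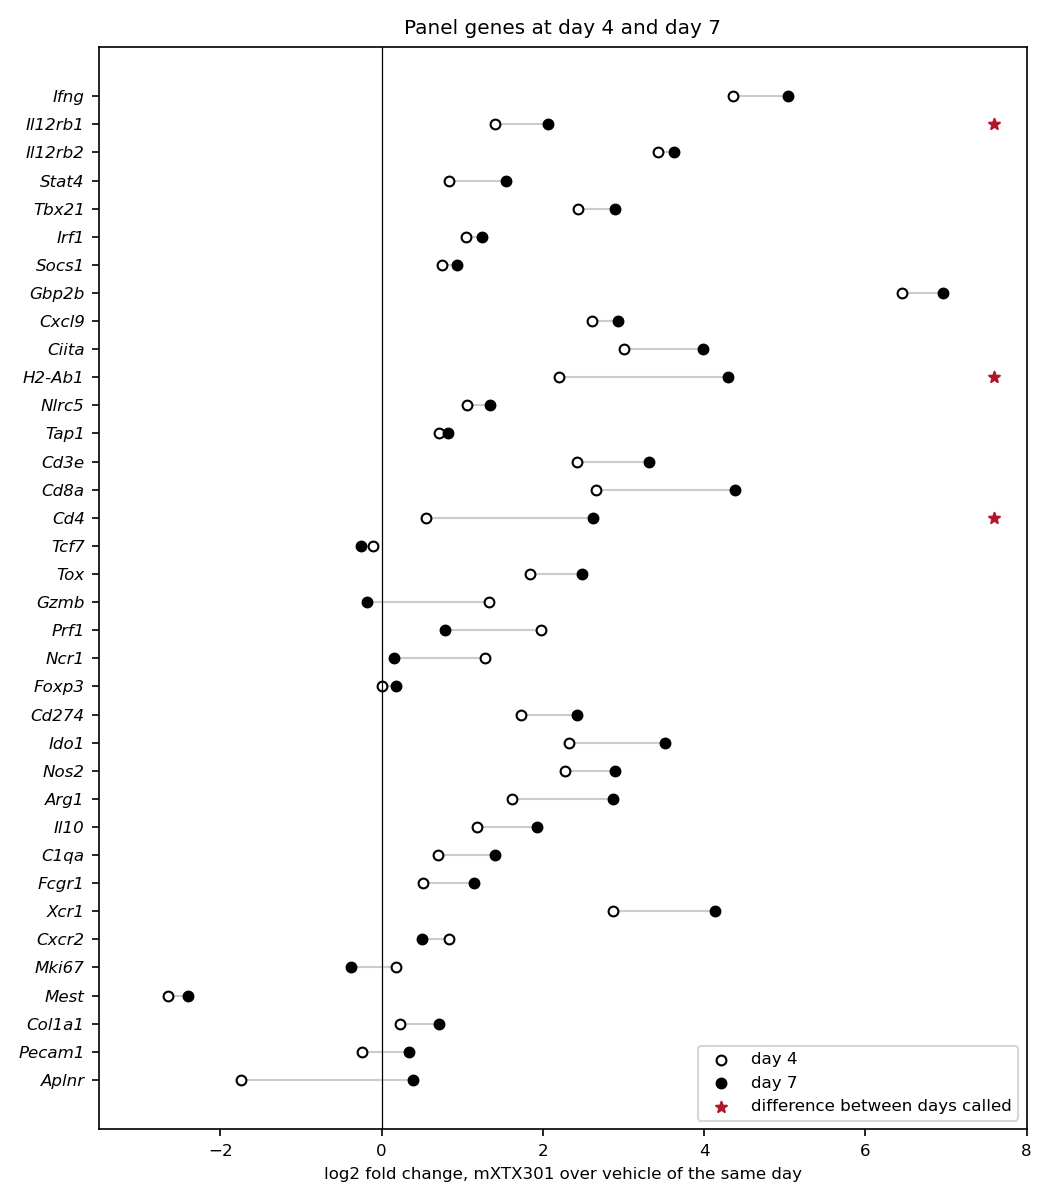
Log2 fold change of mXTX301 over vehicle of the same day for 36 panel genes, with open circles for day 4 and filled circles for day 7. Red stars mark the 3 genes whose difference between days was called, Il12rb1, H2-Ab1 and Cd4; Gzmb, Prf1 and Ncr1 lie further left at day 7 without a called difference.

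The unmasked control at day 7 was given at 0.03 mg/kg and mXTX301 at 0.39 mg/kg, so the doses differ and the values are set side by side; both groups were compared with the same vehicle libraries. In the direct edgeR test 0 genes (0%) were higher and 0 (0%) lower in mXTX301, while 898 had an unadjusted p under 0.05. DESeq2 called 7 higher and 7 lower, and without mXTX301 replicate 3 edgeR called 2 higher and 3 lower. Against vehicle the log2 effect on Ifng was 5.04 for mXTX301 and 4.55 for the unmasked control, and the direct difference was 0.48 with a 95% interval of -0.46 to 1.43. Gbp2b stood at 6.96 for mXTX301 and 6.31 for the unmasked control (interval of the difference -0.34 to 1.64), and Ciita at 3.99 for mXTX301 and 3.70 for the unmasked control (interval -0.23 to 0.81). H2-Ab1 stood at 4.29 for mXTX301 and 4.01 for the unmasked control (interval -0.37 to 0.92). For Cd8a the values were 4.38 for mXTX301 and 5.01 for the unmasked control (interval -1.64 to 0.37), and for Il12rb2 3.62 for mXTX301 and 4.34 for the unmasked control (interval -1.53 to 0.08). Intervals of this width do not show that the drugs act alike on these genes. For Irf1 the interval was -0.05 to 0.24 and for Tap1 -0.09 to 0.17. Against vehicle, 23 of 24 interferon-gamma effectors were higher for mXTX301 and 23 for the unmasked control. Of 22 mitosis genes 22 were lower for mXTX301 and 19 for the unmasked control. Of 18 fibroblast genes 9 were higher for mXTX301 and 7 for the unmasked control. The differences between these counts were not tested. The share of all genes called for the unmasked control against vehicle is not given here, so its counts stand without that background.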

How the data were processed

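RNA was sequenced from 30 MC38 tumours in 6 groups of 5, and 10 of these libraries, those of mXTX301 and vehicle at day 7, are the subject here. The deposited table gives raw read counts per gene. The mm10 build, the aligner STAR 2.7.10a and the counter HTSeq 0.11.1 are named per the submitters' processing notes, beside edgeR 3.34.0 under R 4.1.0, cutadapt (no version) and FastQC 0.11.9; the order of use and whether counting was stranded are not given in the sources used here, so overlapping and antisense genes are uncertain. A deposited table of normalised log2 values was not used.

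Of 24557 entries, 5 repeats of a gene were dropped, which left 24552. Libraries were scaled by TMM and low genes removed by filterByExpr, which left 15482 genes. All 30 libraries were fitted with one mean per group in edgeR 4.0.16 (R 4.3.3, robust quasi-likelihood F test, 24 residual degrees of freedom), the contrasts were tested two-sided, and p-values were adjusted by Benjamini-Hochberg over all 15482 genes, with 0.05 as the threshold. The biological coefficient of variation was 27.3%. The SE of a log2 fold change is its unshrunk size divided by the square root of F, and the intervals are at 95%. The replicates are tumours of separate mice, per the labels. No 2 of the 20 pairs of libraries within these groups agreed within sampling noise.

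Gene lists (58, with 992 genes, of which 918 were tested) and the panel of 38 genes were chosen with earlier results of these data known, so their counts are descriptions. Genes were named by rule: the panel, the 8 largest rises and 8 largest falls without overlap at a mean of at least 1 CPM, the 5 largest gains and 5 largest losses in CPM, up to 3 called genes per list with the smallest p, and the 5 most positive and 5 most negative differences between days. Some genes that these rules pick are not reported here. Other genes, among them those a list left uncalled or lower, were named after their values were seen. Alternatives were RLE or total-count scaling, no filter, DESeq2 1.42.0, only the groups compared, the replicate number as a block, each library left out, and the skin-rich libraries left out or their epidermal level as a covariate. Skin-rich means above the largest gap in the summed CPM of Krt5, Krt14, Krt1, Krt10 and Krt15; leaving out only libraries over 100 CPM was added after seeing the data.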

Additional observations from a re-analysis of the deposited data

Results flagged for a closer look

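Over 386 sets of 5 libraries (193 named genes in 2 groups), a library was singled out in 18. Its gap to the nearest other library took more than 0.71 of the group's range of log2 CPM. Independent, normally distributed values give about 1 such set in 20, and the share is close to that. The genes were partly chosen by small p or absence of overlap, and many vary together. That rate is therefore no test of chance here. Replicate 5 of mXTX301 was high for 4 genes of vessels and fat: Aplnr at 22.6 CPM (5.81 to 7.11 in the other mXTX301 libraries), Vwf at 52.8 CPM (11.4 to 17.8 in the others), Selp at 16.2 CPM (1.88 to 3.13) and Lipe at 24.6 CPM (13.4 to 16). Replicate 4 of mXTX301 was high for 3 T-cell genes, Cd8a at 44.5 CPM (15.5 to 20.9 in the others), Cd3d at 14.7 CPM (5.84 to 7.42) and Cxcr6 at 30 CPM (9.35 to 12.7). Replicate 2 of mXTX301 was low for Ciita at 32.1 CPM (45.4 to 49.5 in the others) and Apol7c at 0.537 CPM (2.99 to 4.46), and replicate 1 for Sdha at 194 CPM (206 to 208).

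In vehicle, replicate 3 was high for Ackr1 at 1.48 CPM (0.151 to 0.225 in the other vehicle libraries) and Ly6a at 132 CPM (72.7 to 83.8) and low for Cd3e at 0.218 CPM (0.51 to 0.617). Replicate 5 of vehicle was high for Cxcr2 at 1.4 CPM (0.211 to 0.358) and the T-cell adaptor Sit1 at 1.2 CPM (0.622 to 0.667), and low for Psmc1 at 211 CPM (216 to 217). Cd22 was low in vehicle replicate 1 at 0.203 CPM (0.763 to 1.18) and Cflar in vehicle replicate 2 at 57.2 CPM (73.5 to 78).

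A difference in the effect of mXTX301 between day 7 and day 4 was called in 42 named genes (edgeR adjusted p under 0.05 for the difference of log2 fold changes, day 7 minus day 4). For single genes these calls come from the main fit only. The total number of such calls depended strongly on single libraries, as given below. In myeloid and inflammatory genes the differences were 4.98 for Ngp, 2.29 for Il1b, 2.24 for Clec4d, 1.76 for Ly6i, 1.61 for Mmp12, 1.504 for F10, 1.44 for Il1rn, 1.34 for Ninj1, 1.02 for Ly6a and 0.89 for Ccl5. Ngp had 0.405 to 2.05 CPM in mXTX301 and no count in 3 of 5 vehicle libraries at day 7, so its difference rests on very few reads. In antigen presentation and co-stimulation they were 2.09 for H2-Ab1, 1.90 for Cd74, 1.18 for Cd86, 0.80 for H2-DMb1, 0.76 for Cd40, 0.40 for H2-K1 and 0.35 for Psmb8. In lysosomal and iron storage genes they were 1.05 for Ctsb, 1.00 for Psap, 0.97 for Fth1 and 0.91 for Ftl1. Further positive differences were 2.84 for Prss46, 2.23 for Fabp4, 2.07 for Cd4, 1.33 for Btg2, 1.31 for Pdpn, 1.24 for Atf3, 0.98 for Notum, 0.73 for Zfp36, 0.65 for Il12rb1 and 0.37 for Bcl6. The day 7 effect on Fabp4 rested mainly on mXTX301 replicate 5, as given above. Cell cycle genes had small negative differences, -0.45 for Kif20a, -0.40 for Plk1, -0.40 for Rrm1, -0.32 for Tpx2 and -0.29 for Mcm5. Other negative differences were -5.74 for Il12a, -2.10 for Cilp, -1.45 for Pcdhb16, -1.13 for Lcor, -1.12 for Hap1 and -0.52 for Mb21d1.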

How the results depend on the processing

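The count of genes called between mXTX301 and vehicle at day 7 (7493) stayed within 1.5 times of itself in every alternative run. It was lowest, at 5240, without the 5 skin-rich libraries, of which 2886 were higher and 2354 lower; 2648 of the 3985 genes called higher above were among them, and 2154 of the 3508 called lower. It was 6699 without the libraries over 100 CPM of epidermal keratins, 6607 to 7574 when each library was left out and 7819 with DESeq2. No call turned direction in these settings, and the share of calls that were higher ran from 48.7 to 55.1%. Non-overlap counts were 2488 above and 2341 below under RLE scaling, and 2395 above and 2452 below under total counts. Without the skin-rich libraries 23 called genes named in the text moved by more than 1.5 times, 21 further from 0 and 2, Ngp and Fcrls, nearer. Of 225 genes that the naming rules pick or that were added (193 of them named in the text), 22 lost their call in at least 1 setting and 1, Col1a1, gained one without vehicle replicate 3.

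The difference between days (772 called, 302 positive and 470 negative) depended on the setting. DESeq2 called 1474 (600 positive, 874 negative), total counts 1204 (949 negative), no filter 162 positive, the groups compared alone 501 (170 positive), leaving out the skin-rich libraries 1265 (568 positive), and leaving out those over 100 CPM 1525 (533 positive, 992 negative). Leaving out single libraries gave 190 to 1250 called, 54 to 484 positive and 136 to 915 negative. The count fell to 190 without mXTX301 day 7 replicate 4, 215 without mXTX301 day 7 replicate 5 and 226 without vehicle day 7 replicate 4. Without mXTX301 day 4 replicates 1, 2 or 4 it was 235, 493 or 374, and without vehicle day 4 replicates 1, 3, 4 or 5 it was 358, 393, 1159 or 1250. The cause was not tested. For mXTX301 against the unmasked control, DESeq2 called 14 (7 higher, 7 lower), and leaving out single libraries gave 0 to 5 called, 0 to 2 higher and 0 to 3 lower, the most without mXTX301 replicate 3.

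With the replicate number as a block, 7419 genes were called at day 7 (3966 higher, 3453 lower), 866 for the difference between days (322 positive, 544 negative) and 0 against the unmasked control. Same-numbered mXTX301 and vehicle libraries correlated at -0.318, -0.209, -0.383, 0.346 and -0.451 over 2000 genes, and 1 of 5 mXTX301 libraries correlated best with its own number. The labels do not say what a shared number means. These correlations cannot show whether same-numbered libraries shared a litter, cage or day. Depth limits the genes near 0 CPM, such as Il12a, Ngp and Gzmk, whose values rest on few reads.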
